A study of Mus musculus with 6 samples.

Results

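The proteasome genes examined here were the 51 protein-coding genes whose symbols run from Psma to Psmg followed by a number, among the 25631 genes listed in the deposited table. Of these, 49 encode subunits of the proteasome, its assembly chaperones, its activators or its inhibitor. The other 2, Psmc3ip and Psme3ip1, matched by name only, since their products bind a proteasome protein or carry its name without being part of the particle. An expression filter, an FPKM (reads scaled by the counting length of a gene and the library total) no lower than 1 in 3 or more of the 6 libraries, was passed by 46 of the 51 members. The 5 that did not pass were Psma8, Psmb8, Psmb9, Psmb11 and Psme1.

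The libraries were made from oocytes of naturally aged ICR mice, 14 months old, that had been injected with equine chorionic gonadotropin and whose large antral follicles were punctured. The aminophylline group (3 libraries) drank water with 4.0 mM aminophylline for 1 week and then water only for 3 weeks, and the control group (3 libraries, labelled untreated) drank water throughout. Aminophylline is theophylline combined with ethylenediamine. Theophylline inhibits phosphodiesterases and blocks adenosine receptors. All 6 libraries came from aged animals, so no comparison with young oocytes was possible. The sources used here did not say how many mice or oocytes went into a library. They also did not say that the 3 libraries of a group came from separate animals, so the p-values measure the spread between these libraries only.

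The proteasome degrades proteins that carry ubiquitin chains. Its 20S core is a barrel of stacked rings. The outer rings are built of alpha subunits and the inner rings of beta subunits, and Psmb5, Psmb6 and Psmb7 are the beta subunits that cut peptide bonds. The 19S particle caps the barrel, where its ATPase ring (Psmc genes) unfolds substrates and its other subunits (most Psmd genes) bind ubiquitin chains and remove them. Dedicated chaperones help to assemble both particles and are not part of the finished proteasome. In oocytes the proteasome is known for the destruction of cyclin B and securin, by which meiosis moves on to the separation of chromosomes.

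Library totals ran from 14112341 to 33641283 reads, lowest in control library 2, and at least 99.565% of these fell on the listed genes. All 12 oocyte markers were listed, and 10 of them exceeded an FPKM of 10 in every library. The summed FPKM of 11 granulosa and cumulus cell markers was 16.03 to 23.4, against 10232 to 15770 for the oocyte markers. The markers of theca, stroma, endothelium, lymphocytes and erythrocytes each summed to less than 10 FPKM in each library. Control library 1 stood apart in macrophage transcripts, with the highest level of 11 of the 13 listed markers. Of these markers C1qb was at 72.3 to 99.8 FPKM in every library, and lowest in control library 1. The other 12 summed to 196 FPKM in control library 1 and to 2.17 to 4.03 in the other 5 libraries. Over all 13 the sums were 268 and 82.0 to 104.

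The first question was whether proteasome transcripts differed as a class between aminophylline and control oocytes. In these libraries they shifted little. Summed over the 49 genes as TPM (FPKM rescaled to the same sum in every library), proteasome transcripts came to 17333, 17024 and 16519.9 in control libraries 1, 2 and 3, and to 17129, 17253 and 17933 in aminophylline libraries 1, 2 and 3. The groups overlapped, and the means (16959 ± 410 and 17438 ± 433, SD, n = 3 each) differed by little more than the spread within a group. In bulk RNA, fewer cells and less RNA per cell cannot be told apart, and TPM gives shares of a library rather than amounts per oocyte.

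Gene by gene, fold changes were tested with limma on log2(FPKM + 1) over all 10340 genes that passed the filter. The added 1 makes the fold changes of genes with low FPKM smaller. The median log2 fold change of the 46 tested members was 0.11, beside 0.095 for all tested genes. Of the members 71.7% were above 0, beside 64.8% of all genes. Changes ran from -0.70 for Psmd5 to 0.56 for Psmc3, and 45 of the 46 members changed by less than 1.5-fold either way. Within groups the members varied less than the median gene. Their median residual SD was 0.20 on the log2 scale, beside 0.27 for all tested genes, though their levels were also higher.

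At an unadjusted limma p under 0.05, 3 of 46 members were higher with aminophylline (Psmc3, Psmd3 and Psmg4; 6.52%, beside 4.41% of all tested genes) and 1 was lower (Psmd5; 2.17%, beside 2.84%). These shares were near the background. Across all genes there were 456 higher and 294 lower calls, and this split became 282 to 292 after TPM rescaling, 347 to 528 after quantile normalization and 281 to 502 after median centring. No member passed an adjusted p of 0.05 (0 of 46, the lowest adjusted limma p being 0.651), and neither did any other gene (0% of all tested genes). With voom on recovered reads there were again 0 members past the adjusted threshold, and 2 higher and 1 lower at the unadjusted one. The 3 aminophylline libraries lay above the 3 control libraries for 8 members (17.4%, beside 7.51% of all genes) and below them for 2 (4.35%, beside 4.96%). Those 10 members were Psma4, Psmc3, Psmc4, Psmd3, Psmd8, Psmd9, Psme2 and Psmg3 above, and Psmd5 and Psmg1 below. The smallest p that an exact permutation test of 3 against 3 libraries allows is 0.1. The titles do not say that libraries with the same replicate number are paired. With the replicate number as a block, 4 members were higher (the same 3 and Psmg3) and 1 was lower. The background was then 9.88% higher and 4.3% lower, with 0.455% of all genes past the adjusted threshold and 0 members among them (the lowest adjusted limma p was 0.0569, of Psmd5).

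**Figure D1:**
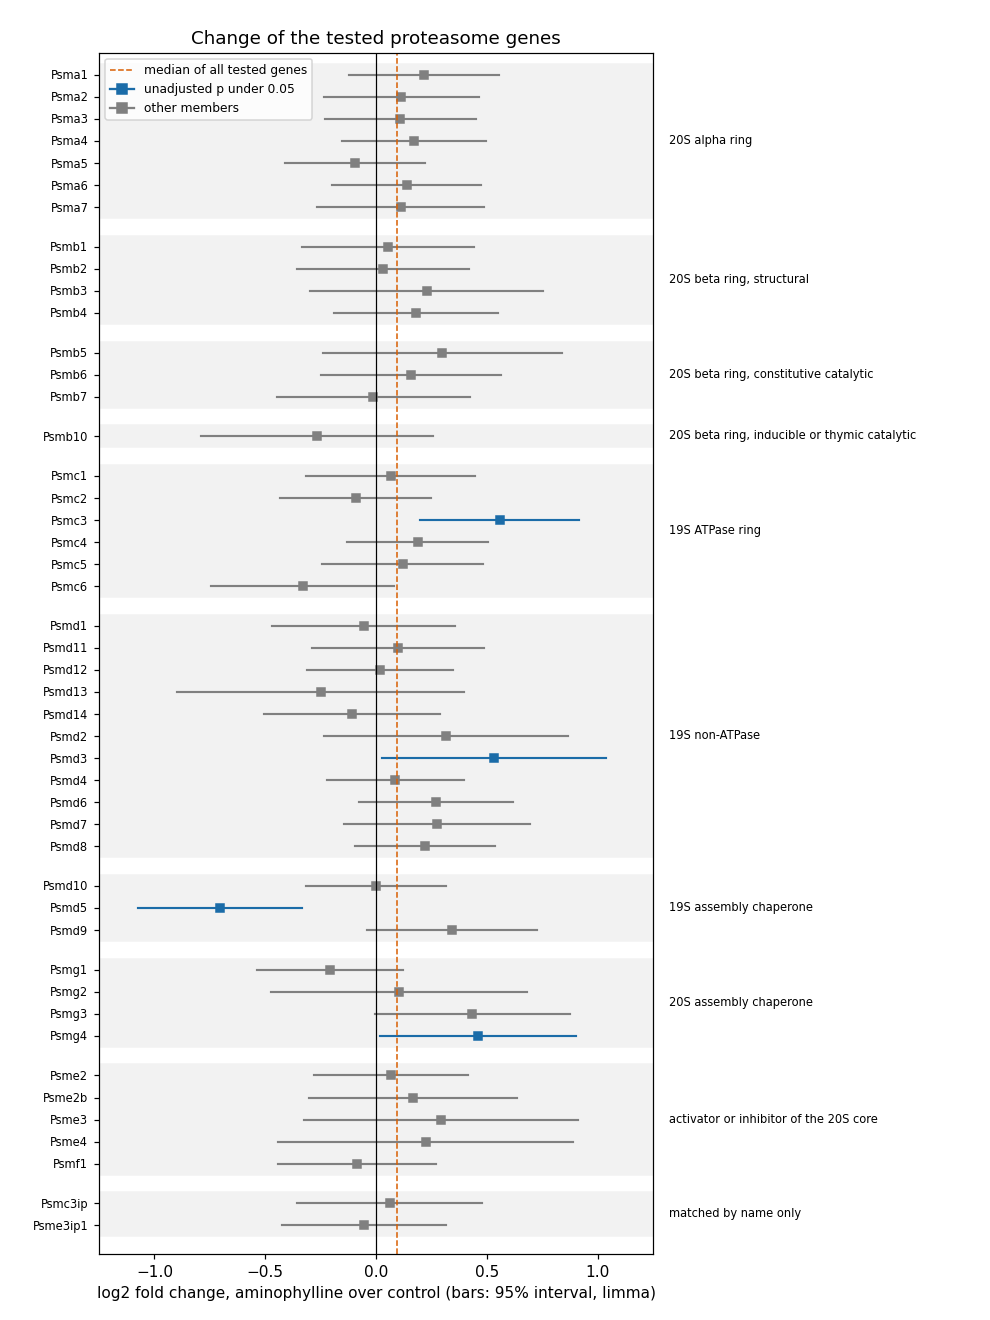
Log2 fold change of aminophylline over control for each of the 46 tested proteasome genes (squares) with its 95% limma interval (bars), grouped by role; the dashed line marks the median of all tested genes, 0.095. Intervals of 42 members cross 0, that of Psmd5 lies below 0, and those of Psmc3, Psmd3 and Psmg4 lie above it.

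The count of higher members depended on which libraries were kept. Without control library 2 there were 7 (Psmb3, Psmb4, Psmb5, Psmb6, Psmc3, Psmg3 and Psmg4), and without control library 3 there were also 7 (Psmc3, Psmd2, Psmd3, Psmd6, Psmd7, Psmd9 and Psme3). Only Psmc3 was shared between these sets, and the share of all genes called higher was also larger, 8.37% without control library 2 and 11.8% without control library 3. Without control library 1, or without any 1 of the aminophylline libraries, Psmc3 was the only higher member, where 2.07% of all genes were higher without control library 1 and 5.23%, 1.96% and 2.41% without aminophylline libraries 1, 2 and 3. Psmd5 and Psmc3 kept an unadjusted p under 0.05 in each of the 6 fits that left out a library. Psmd3 and Psmg4 did so in 1 of the 6 each.

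The clearest difference among the chaperones of the 19S particle was in Psmd5. Its product, also called S5b, holds the ATPase subunit Psmc2 during assembly of the 19S base. Psmd5 (NCBI gene 66998, GRCm38 chr2:34852087-34870965) had an FPKM of 229, 162 and 199 in control libraries 1, 2 and 3, and 118, 127 and 114 in aminophylline libraries 1, 2 and 3. All control libraries were higher than all aminophylline libraries. The means were 197 ± 33.9 and 119 ± 6.62 (SD, n = 3 each), and 4679 to 15824 reads lay behind each value. The log2 fold change was -0.70 with an SE of 0.17 (95% interval -1.07 to -0.33), at an unadjusted limma p of 0.00151 and an adjusted p of 0.651. Among the 46 members it was the one with the largest change and the lowest p, and with the replicate block its unadjusted limma p was 0.000366.

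Psmd9, the chaperone known as p27 that binds the ATPase subunits Psmc3 and Psmc6, was on the other side. Psmd9 (NCBI gene 67151, GRCm38 chr5:123228190-123250126) had an FPKM of 64.4, 55.9 and 73.0 in controls and 77.4, 73.6 and 94.97 with aminophylline. The groups did not overlap, but the gap between the highest control and the lowest aminophylline library was small. The fit gave a log2 fold change of 0.34 with an SE of 0.17, and the limma p did not pass (unadjusted 0.0752, adjusted 0.688). Psmd10, or gankyrin, which binds the ATPase subunit Psmc4, had an FPKM of 159 to 178 in the control and 161 to 176 in the aminophylline libraries. Its log2 fold change was -0.001, with a 95% interval of -0.32 to 0.32.

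Because the chaperones act with defined partners, their FPKM ratios within a library are given as a description, chosen after the values were seen. The ratio of Psmd9 to Psmd5 was 0.281, 0.346 and 0.367 in controls and 0.657, 0.581 and 0.836 with aminophylline. The ratio of Psmd5 to its ATPase partner Psmc2 was 1.04, 0.917 and 1.02 in controls and 0.590, 0.728 and 0.627 with aminophylline. Neither ratio overlapped between the groups. For Psmd9 to Psmd5, both chaperones and not partners of each other, this was fixed in advance. The groups overlapped for neither gene, and the genes lay on opposite sides, so their ratio could not overlap. Psmd9 and its partner Psmc3 kept a ratio of 1.05 to 1.24 in controls and 0.923 to 1.07 with aminophylline, and these ranges overlapped. The ratio of Psmd10 to its partner Psmc4 was 1.11, 0.947 and 0.939 in controls and 0.814, 0.876 and 0.936 with aminophylline, without overlap by a narrow margin. The summed level of the 3 chaperones was 791 ± 113 TPM in control and 659 ± 45.7 in aminophylline libraries (SD, n = 3 each), and the groups overlapped.

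The sequences before the start sites of the 2 chaperones that stood on opposite sides are shown for comparison, as 250 bases from RefSeq on GRCm38.p6, written 5′ to 3′ along the gene's strand. The Psmd5 sequence is chr2:34870963-34871212 on the minus strand and the Psmd9 sequence is chr5:123227940-123228189 on the plus strand. Capitals mark a match to the core letters of the antioxidant response element (TGACNNNGC), to which the transcription factor Nfe2l1 and its relatives bind at proteasome genes.
Psmd5: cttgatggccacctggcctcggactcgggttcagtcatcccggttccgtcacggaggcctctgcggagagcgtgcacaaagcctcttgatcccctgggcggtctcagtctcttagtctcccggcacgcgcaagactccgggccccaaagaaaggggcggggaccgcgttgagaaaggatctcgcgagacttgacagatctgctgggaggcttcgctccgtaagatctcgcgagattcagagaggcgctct
Psmd9: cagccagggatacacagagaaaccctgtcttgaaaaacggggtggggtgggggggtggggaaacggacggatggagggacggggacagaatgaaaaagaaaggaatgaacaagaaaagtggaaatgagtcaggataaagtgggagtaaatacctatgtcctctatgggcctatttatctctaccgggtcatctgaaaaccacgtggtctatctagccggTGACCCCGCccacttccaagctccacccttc
The Psmd9 sequence held 1 match, TGACCCCGC, beginning 31 bases before the start. No match to these letters was found in the Psmd5 sequence on either strand.

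The chaperones of the 20S core work as pairs: Psmg1 with Psmg2, and Psmg3 with Psmg4. Both members of the second pair had higher mean levels with aminophylline, and Psmg4 passed the unadjusted test. Psmg4 (NCBI gene 69666, GRCm38 chr13:34162964-34178172) had an FPKM of 89.7, 129 and 74.3 in controls and 135, 135 and 124 with aminophylline. Control library 2 was above the lowest aminophylline library, so the groups overlapped. The means were 97.7 ± 28.3 and 131 ± 5.87 (SD, n = 3 each), and the log2 fold change was 0.46 with an SE of 0.20 (unadjusted limma p of 0.0431, adjusted p of 0.684). Its limma p no longer passed without a filter on FPKM, after median centring or with the unmoderated model.

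Psmg3 (NCBI gene 66506, GRCm38 chr5:139823613-139826894) had an FPKM of 19.7, 32.1 and 25.4 in controls and 35.3, 32.6 and 35.6 with aminophylline. The groups did not overlap, but control library 2 came close to aminophylline library 2. The log2 fold change was 0.43 with an SE of 0.20, at an unadjusted limma p of 0.0523, and of 0.0322 with the replicate block. The adjusted limma p was 0.685, or 0.299 with the block. The ratio of Psmg4 to Psmg3 was 2.92 to 4.55 in controls and 3.50 to 4.13 with aminophylline, and these ranges overlapped.

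In the other pair, Psmg1 had an FPKM of 100.6, 97.7 and 113 in controls and 86.2, 91.5 and 90.6 with aminophylline. Every aminophylline library was below every control library, and the log2 fold change was -0.21 with an SE of 0.15, and the limma p did not pass (unadjusted 0.19, adjusted 0.734). Its partner Psmg2 was low, at an FPKM of 1.07 to 2.92 from 40 to 119 reads a library. The log2 fold change of Psmg2 was 0.10 with a 95% interval of -0.48 to 0.68. The 4 genes of this group summed to 418 ± 28.5 TPM in control and 457 ± 13.1 in aminophylline libraries (SD, n = 3 each).

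**Figure D2:**
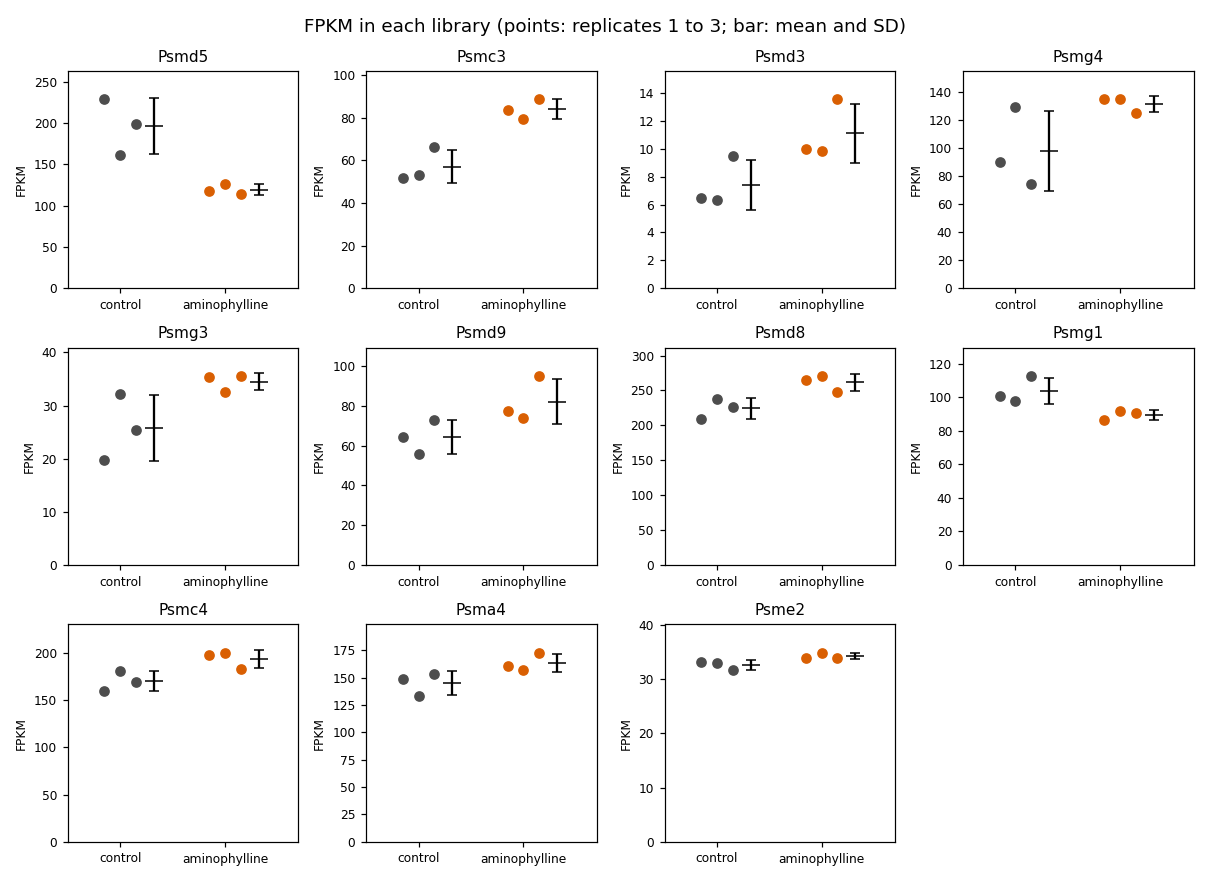
FPKM of the 11 proteasome genes with an unadjusted limma p under 0.05 or with groups that do not overlap, in each library (points, replicates 1 to 3 from left to right) with the mean and SD of the group (bars), on linear axes from 0. Psmd5 lies at 162 to 229 in control and 114 to 127 in aminophylline libraries, whereas for Psme2 the groups almost touch.

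In the ATPase ring of the 19S particle, 1 of 6 subunits passed the unadjusted test. Psmc3 (NCBI gene 19182, GRCm38 chr2:91054016-91059438), also called Rpt5, had an FPKM of 51.8, 53.2 and 66.04 in controls and 83.8, 79.2 and 88.7 with aminophylline. All aminophylline libraries were above all control libraries. The means were 57.0 ± 7.85 and 83.9 ± 4.74 (SD, n = 3 each), and the log2 fold change was 0.56 with an SE of 0.16 (95% interval 0.20 to 0.92), at an unadjusted limma p of 0.00582 and an adjusted p of 0.653. Across the 10 other ways of processing and the 6 fits without a library, its log2 fold change stayed between 0.475 and 0.665, with an unadjusted limma p of 0.0021 to 0.0314 and an adjusted p of 0.131 to 0.999.

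Psmc6, whose product sits beside that of Psmc3 in the assembling ring, had an FPKM of 104, 67.7 and 96.9 in controls and 69.5, 65.6 and 74.4 with aminophylline. Its groups overlapped because of control library 2. The log2 fold change was -0.33 with a 95% interval of -0.74 to 0.08. The ratio of Psmc3 to Psmc6, again chosen after the values were seen, was 0.499, 0.787 and 0.682 in controls and 1.21, 1.21 and 1.19 with aminophylline. Psmc4 had an FPKM of 160.0, 181 and 169 in controls and 198, 200.4 and 183 with aminophylline, without overlap. Its log2 fold change was 0.19 with an SE of 0.145, and the limma p did not pass (unadjusted 0.222, adjusted 0.755). Psmc5, the most abundant of the ring at a mean of 244 FPKM over the 6 libraries, and Psmc1 and Psmc2 each had overlapping groups and a log2 fold change between -0.09 and 0.12.

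Of the 11 other subunits of the 19S particle, Psmd3 passed the unadjusted test. Psmd3 (NCBI gene 22123, GRCm38 chr11:98682554-98695978), a scaffold subunit of the lid, had an FPKM of 6.48, 6.30 and 9.51 in controls and 9.98, 9.85 and 13.6 with aminophylline. The groups did not overlap, although control library 3 came close to the nearest aminophylline library. The means were 7.43 ± 1.80 and 11.1 ± 2.12 (SD, n = 3 each). A log2 fold change of 0.53 with an SE of 0.23 was fitted (unadjusted limma p of 0.0407, adjusted p of 0.682). Its limma p no longer passed after TPM rescaling, with the unmoderated model or with voom on recovered reads. Within each group Psmd3 was highest in library 3, where long genes tended to be high.

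Psmd8, another lid subunit, had an FPKM of 209, 238 and 227 in controls and 265, 271 and 248 with aminophylline. These groups did not overlap, and the log2 fold change was 0.22 with an SE of 0.14 (unadjusted limma p of 0.154, adjusted p of 0.728). Psmd4, a receptor for ubiquitin chains and the most abundant 19S gene at a mean of 394 FPKM, had a log2 fold change of 0.09. Psmd14, the subunit that cuts ubiquitin chains from substrates, was at 50.03 to 65.99 FPKM in control and 47.1 to 61.6 in aminophylline libraries. The groups overlapped for Psmd4, Psmd14 and each of the remaining 7 subunits, whose log2 fold changes ran from -0.25 (Psmd13) to 0.31 (Psmd2).

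Psmd13 stood apart by its level. The other 16 genes of the 19S particle had means of 9.28 to 394 FPKM over the 6 libraries, whereas Psmd13 had 1.20. It was counted with 23 to 102 reads a library, and its FPKM was 0.46 to 2.05 in control and 0.52 to 1.498 in aminophylline libraries. Its 95% interval was wide, from -0.90 to 0.39 on the log2 scale, and the part of read depth in this was not tested.

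The 14 constitutive subunits of the 20S core were abundant, with means of 72.55 (Psma3) to 1289 FPKM (Psma2), against a median of 6.62 over all tested genes. None of them passed the unadjusted limma test. Their log2 fold changes ran from -0.10 (Psma5) to 0.30 (Psmb5), and 12 of 14 were above 0, where 64.8% of all tested genes were. Of the 14, Psma7, Psmb1, Psmb2, Psmb5 and Psmb7 changed sign in some setting. Among the alpha subunits only Psma4 had groups that did not overlap. Psma4 had an FPKM of 149, 133 and 153 in controls and 160.3, 157 and 173 with aminophylline, and its log2 fold change was 0.17 with an SE of 0.15 (unadjusted limma p of 0.269, adjusted p of 0.767). The summed level of the 20S core was 11668 ± 903 TPM in control and 12118 ± 161 in aminophylline libraries (SD, n = 3 each), with overlapping groups.

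The catalytic subunits were measured at different levels. Psmb6, with caspase-like activity, had an FPKM of 611, 833 and 524 in controls and 755, 747 and 656 with aminophylline. Psmb5, with chymotrypsin-like activity, had 88.1, 185 and 148 in controls and 162, 190.4 and 146 with aminophylline. Psmb7, with trypsin-like activity, had 233, 137 and 204 in controls and 179.8, 179.6 and 196 with aminophylline. All 3 had overlapping groups, and control library 2 was the highest control for Psmb5 and Psmb6 and the lowest for Psmb7. The 95% intervals of the log2 fold change were -0.24 to 0.84 for Psmb5, -0.25 to 0.57 for Psmb6 and -0.45 to 0.42 for Psmb7. Leaving out control library 1 brought the Psmb5 log2 fold change to -0.003. It was 0.53 without control library 2 and 0.60 with library weights. The 95% interval of Psmb5 given above includes changes of more than 1.5-fold upward.

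**Figure D3:**
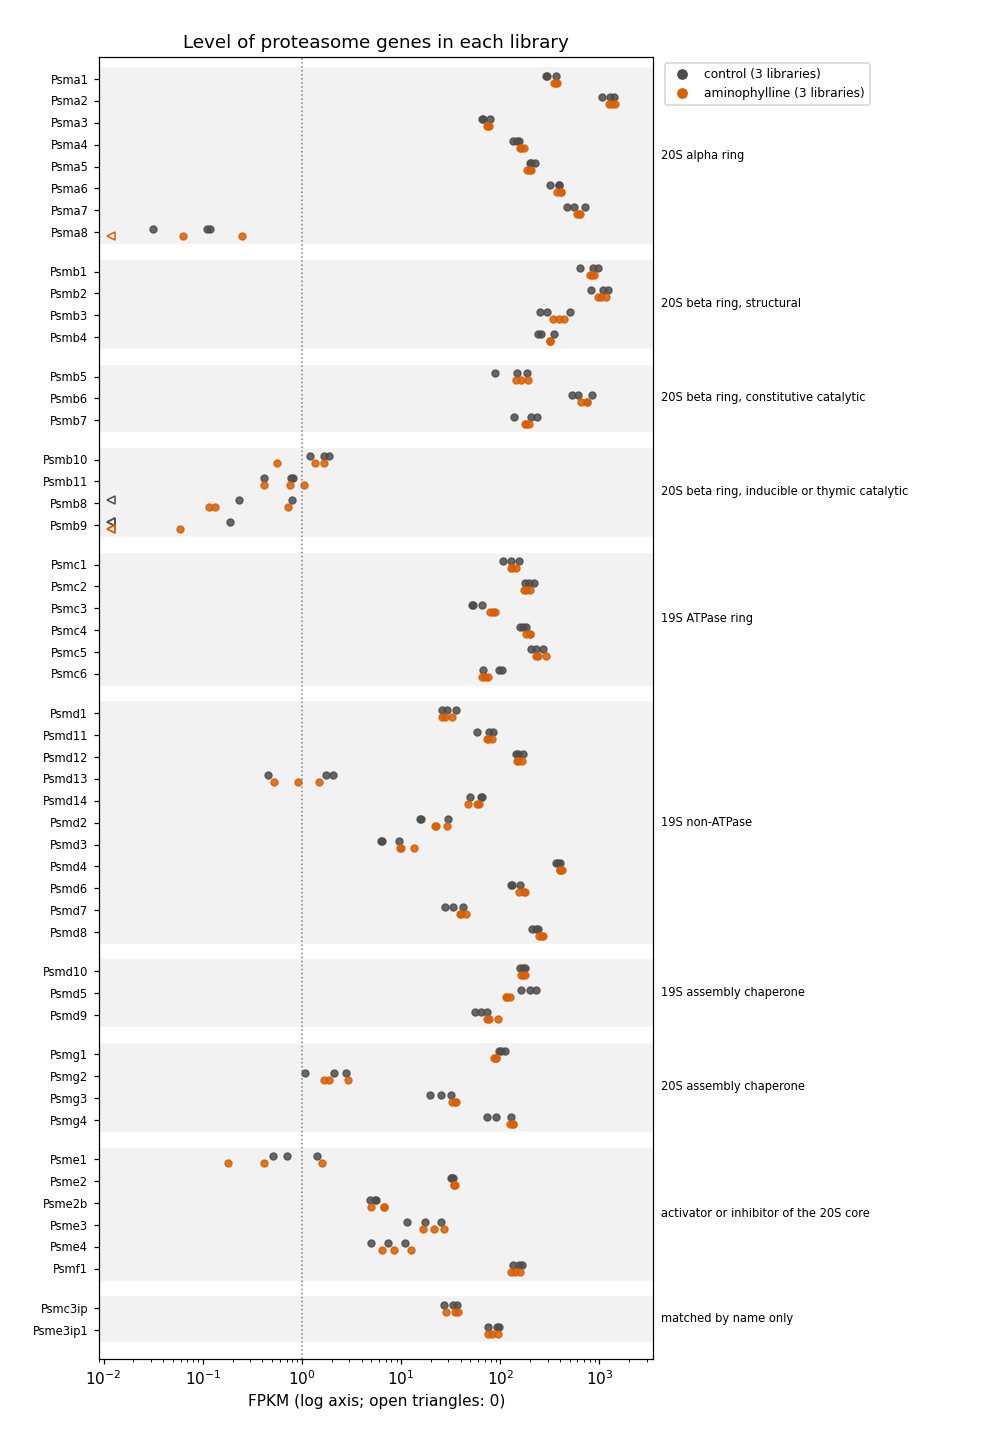
FPKM of all 51 members in the 3 control (grey) and 3 aminophylline (orange) libraries on a log axis, grouped by role; open triangles mark a value of 0 and the dotted line the filter value of 1. Psma2 lies highest, at 1068 to 1435 FPKM, and most constitutive subunits lie above 10 FPKM (40 of the 51 members in every library), while Psma8, Psmb8, Psmb9, Psmb10, Psmb11, Psmd13, Psmg2 and Psme1 lie at or below 2.92.

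The inducible catalytic subunits of the immunoproteasome, which interferon-stimulated and immune cells use in place of the constitutive ones, were low. Psmb8 and Psmb9 did not pass the expression filter, whereas Psmb10 did. Psmb10 had an FPKM of 1.22, 1.90 and 1.68 in controls and 1.67, 1.37 and 0.57 with aminophylline, from 22 to 68 reads. Its groups overlapped, with a log2 fold change of -0.27 with a 95% interval of -0.79 to 0.26. Psmb8 had 33, 4 and 0 reads in the control and 4, 4 and 27 in the aminophylline libraries. Psmb9 had 7, 0 and 0 reads in the control and 0, 0 and 2 in the aminophylline libraries. A count of 0 allows up to 3 reads, which is an FPKM of 0.0771 for Psmb8 in control library 3. Psmb8 and Psmb9 were highest in control library 1, the library with the most macrophage transcripts. The macrophage markers Lyz2 and Fcer1g had 2362 and 1275 reads there, and in the other 5 libraries 0 to 15 and 0 to 6. In aminophylline library 3, where Psmb8 had 27 reads, the 12 macrophage markers other than C1qb summed to 4.03 FPKM, against 196 in control library 1. The part of macrophage RNA in the Psmb8 and Psmb9 values was not tested. Of the tissue-specific subunits, Psmb11, known from the thymus, had 49 to 111 reads a library, and Psma8, known from the testis, had 0 to 14.

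Among the activators, Psme1 and Psme2 encode the subunits of one ring, PA28αβ, but were listed at unequal levels. Psme2 had an FPKM of 33.25, 32.9 and 31.6 in controls and 33.9, 34.9 and 33.9 with aminophylline. Psme1 had 1.43, 0.51 and 0.71 in controls and 0.18, 0.41 and 1.61 with aminophylline, from 5 to 48 reads. The ratio of Psme1 to Psme2 was thus 0.0053 to 0.0473 over the 6 libraries. The Psme2 groups did not overlap, but the fitted log2 fold change was 0.07 with an SE of 0.16 (unadjusted limma p of 0.673, adjusted p of 0.92), and the sign turned to -0.014 after median centring. Psme2b is a near copy of Psme2, so reads may have been shared between both genes and their values are uncertain. Psme2b had an FPKM of 4.84 to 5.58 in control and 4.92 to 6.74 in aminophylline libraries.

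The nuclear activators had overlapping groups that followed the same order of libraries. Psme3 (PA28γ) had an FPKM of 17.3, 11.4 and 25.5 in controls and 16.6, 21.4 and 27.1 with aminophylline. Psme4 (PA200) had 7.46, 4.94 and 11.1 in controls and 6.44, 8.53 and 12.6 with aminophylline. Both were lowest in control library 2 and highest in library 3 of each group, and their log2 fold changes were 0.29 and 0.22. The inhibitor Psmf1 (PI31) had 133 to 167 in control and 128 to 159.9 in aminophylline libraries, with a log2 fold change of -0.09. The 2 members matched by name only, Psmc3ip, a factor of meiotic recombination, and Psme3ip1, a partner of Psme3, had log2 fold changes of 0.06 and -0.06, and their groups overlapped.

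The order of the libraries within a group followed gene length for many members. For each library the log2 difference from the mean of the other libraries of its group was set against the counting length of the gene, which ran from 431 to 7649 bases over the 46 tested members. In control library 2 Spearman's rho was -0.55 over these members (-0.41 over all 10340 genes), and in control library 3 it was 0.50 (0.45). In aminophylline libraries 1, 2 and 3 it was -0.24, -0.31 and 0.40 over the members. Over all genes it was -0.423, -0.012 and 0.42 there, so the trend in aminophylline library 2 was seen in the members only. In control library 1 it was 0.085 (-0.046 over all genes). The 14 members shorter than 1200 bases were higher in control library 2 by a median of 0.36 on the log2 scale, and the 12 members of 2000 bases or more were lower by 0.31. In control library 3 the medians had the opposite signs, -0.23 and 0.21. These are correlations across genes of the same libraries, described without a test.

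**Figure D4:**
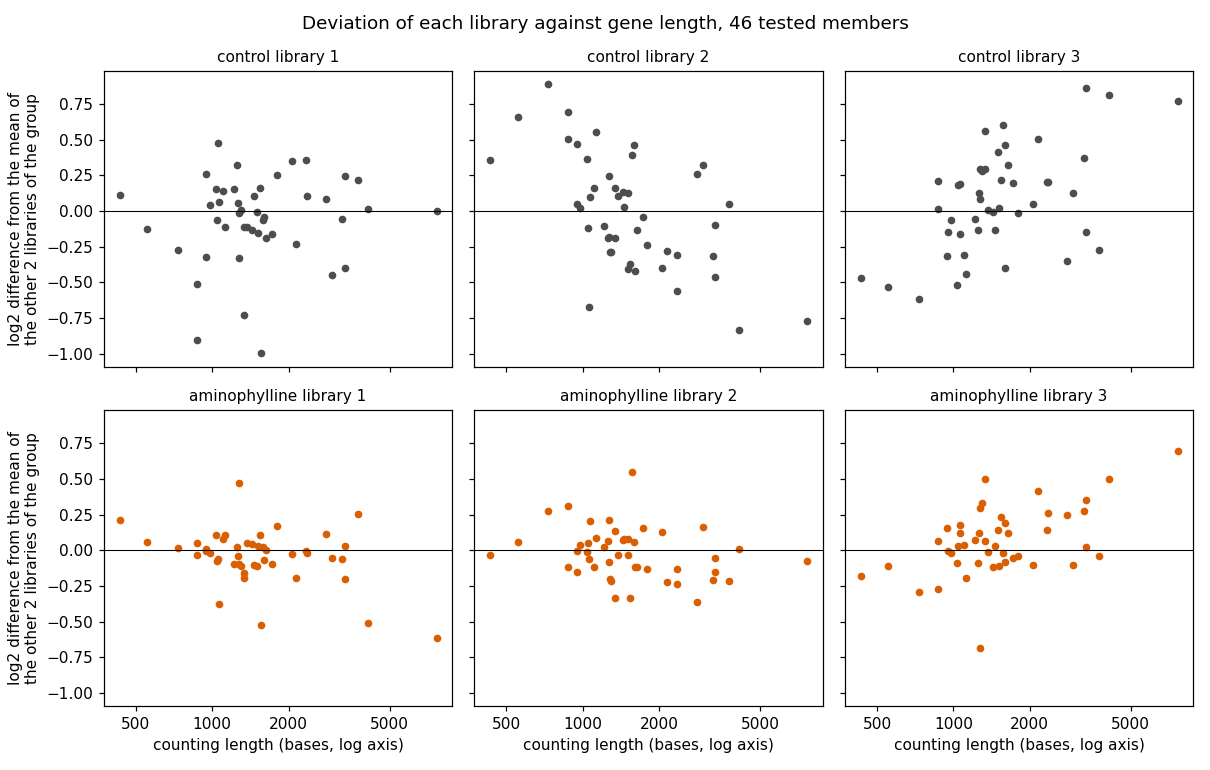
Log2 difference of each library from the mean of the other 2 libraries of its group (vertical axis) against counting length in bases (horizontal log axis) for the 46 tested members, 1 point a gene. The points slope down in control library 2 (Spearman's rho -0.551) and up in control library 3 (0.5) and aminophylline library 3 (0.403).

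Between the groups the relation with length was weak. Spearman's rho of the log2 fold change with counting length was -0.15 over the 46 members and -0.04 over all genes. The members that passed without control library 2 included Psmb3, Psmb4, Psmb5, Psmb6, Psmg3 and Psmg4, each shorter than 1200 bases. The remaining gene of that set was Psmc3, at 1635 bases. Those that passed without control library 3 included Psmd2, Psmd3 and Psme3, each of 2000 bases or more. The others of that set were Psmd9, Psmd6, Psmd7 and Psmc3, at 1296, 1337, 1600 and 1635 bases. The part of gene length in these calls was not tested.

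Other genes of the pathway were taken from a list of factors that bind the proteasome, regulate its genes, encode ubiquitin or deliver substrates. Of these, 36 were listed and 32 tested. Their median log2 fold change was 0.22, beside 0.095 for all tested genes. Of the 32, 23 were above 0 (71.9%, beside 64.8% of all tested genes). At an unadjusted limma p under 0.05, 2 were higher (6.25%, beside 4.41% of all genes) and 0 lower, and the lowest adjusted limma p was 0.682. The split of 2 to 0 (Sem1 and Rps27a higher) became 1 to 1 after quantile normalization (Uba1 higher, Nfe2l3 lower). After median centring it was 0 to 1 (Nfe2l3 lower). Which genes passed thus depended on the scaling, and Nfe2l3 was below 0 in the reported fit as well (log2 fold change of -0.40). With the replicate block 5 of the 32 were higher (Sem1, Rps27a, Uba1, Rad23b and Vcp), where 9.88% of all genes were higher.

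Sem1, a small subunit of the 19S lid outside the naming rule, had an FPKM of 571, 579 and 501 in controls and 681, 706 and 683 with aminophylline, without overlap. Its log2 fold change was 0.33 with an SE of 0.14 (unadjusted limma p of 0.0428, adjusted p of 0.683). Rps27a, which encodes ubiquitin fused to a ribosomal protein, had 246, 280.3 and 238 in controls and 319.9, 335 and 317 with aminophylline, also without overlap. Its log2 fold change was 0.35 with an SE of 0.145, at an unadjusted limma p of 0.0352 and an adjusted p of 0.682. Pomp, the maturation factor of the 20S core, had an FPKM of 254 to 286 in control and 279.7 to 291 in aminophylline libraries, and its log2 fold change was 0.11.

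The groups overlapped for the transcription factors of proteasome genes Nfe2l1, Nfe2l2 and Nfe2l3. Nfe2l1 had an FPKM of 3.09, 3.86 and 5.41 in controls and 3.24, 6.54 and 7.27 with aminophylline. Nfe2l2 had 9.19, 6.87 and 10.5 in controls and 7.31, 8.44 and 6.51 with aminophylline. The log2 fold changes of Nfe2l1 and Nfe2l2 were 0.35 and -0.22. Their unadjusted limma p-values were 0.254 and 0.351, and the adjusted limma p-values 0.762 and 0.795. Nfe2l3 had an FPKM of 2.61, 1.31 and 2.04 in controls and 1.11, 0.98 and 1.65 with aminophylline. Its log2 fold change was -0.40, at an unadjusted limma p of 0.11 and an adjusted p of 0.721.

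RefSeq promoter windows, 250 bases before to 50 after the start, were found for 43 of the 51 members (47 windows). The letters TGACNNNGC, searched on both strands, were in 6 of the 47 windows (12.8%, beside 12.4% of 32851 windows of all genes), those of Psmb5, Psmb6, Psmc6, Psmd9, Psmd12 and Psme4. The cAMP response element letters TGACGTCA were in 0 of 47 windows, beside 1.79% of all. The letters CCAAT were in 16 of 47 (34.0%, beside 37.4%). The Psmb5 promoter is shown as that of a catalytic subunit with a match to TGACNNNGC. Its 250 bases are chr14:54617996-54618245 on the minus strand of GRCm38.p6, with the match in capitals.
Psmb5: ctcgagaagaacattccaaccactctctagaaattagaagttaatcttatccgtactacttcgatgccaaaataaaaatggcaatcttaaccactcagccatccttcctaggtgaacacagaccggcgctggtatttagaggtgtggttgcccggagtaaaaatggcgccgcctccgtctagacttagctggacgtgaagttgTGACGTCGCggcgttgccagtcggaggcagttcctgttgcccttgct
The match, TGACGTCGC, begins 47 bases before the start. The Psmg3 sequence, chr5:139826895-139827144 on the minus strand, is shown as that of a chaperone gene without overlap between the groups, and held no match.
Psmg3: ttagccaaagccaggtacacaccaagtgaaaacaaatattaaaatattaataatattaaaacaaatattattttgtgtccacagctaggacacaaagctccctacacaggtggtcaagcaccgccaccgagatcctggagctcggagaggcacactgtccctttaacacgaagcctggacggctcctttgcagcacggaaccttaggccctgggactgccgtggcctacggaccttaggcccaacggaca
A match is a description of letters in the window only. Psmc3 and Psmd3 were not among the genes with a window.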

How the data were processed

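Oocyte libraries of the control (titles Aged1 to Aged3) and aminophylline (titles Ami1 to Ami3) groups were grouped by their labels. The authors deposited FPKM values per gene, on GRCm38 (mm10) per the labels. The aligner and counting tool were not given in the sources used here, nor was the use of strand. For the 22583 genes above 0 in 2 or more libraries, the FPKM values were whole numbers of reads divided by a whole gene length and library total (100% of values, within 0.01 reads), so reads, lengths and library totals were recovered from the file. The 3048 genes above 0 in 1 library were not checked. Read counts cover counting error only, since no molecular identifiers were stated.

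The 10340 genes that reached 1 FPKM in 3 or more of 6 libraries were tested on log2(FPKM + 1) with limma 3.58.1 (R 4.3.3), moderated with a trend, two-sided, with Benjamini-Hochberg adjustment over all of them. The fit was tested on simulated data with 200 genes changed. The simulated libraries had none of the length trends described above, so that test does not cover them. Named were the members with an unadjusted p under 0.05 or without overlap between groups, and, whatever their change, the catalytic, inducible and tissue-specific subunits, activators and chaperones and the extremes of each role. Genes were also named with ratios or levels chosen after their values were seen. The members and lists were chosen with earlier results of these data known. Replicate numbers 1 to 3 come from the titles, which do not say what the numbers mark. Deviations of same-numbered libraries correlated at 0.138, 0.14 and 0.552, so the numbers were taken as pairs in an alternative fit with a replicate block. Differently numbered libraries were not compared in this way, so p-values with the block rest on a pairing that the labels do not give. Other alternatives changed the pseudocount, filter, scaling, variance model or libraries. Promoters came from RefSeq (GRCm38.p6).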

Additional observations from a re-analysis of the deposited data

How the results depend on the processing

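Depth and 3 libraries a group limited the comparison: 14112341 reads in the smallest library leave members under 1 FPKM with few reads, and no adjusted call of a member was made in any setting (0 throughout). Among the 46 members, the count higher at an unadjusted limma p (3) was 6 with library weights, 0 with a fold change over 1.5 asked as well, and 1 to 7 when each library was left out in turn, where all genes gave 203 to 1219 higher and 126 to 752 lower. The count lower (1) was 2 with the unmoderated linear model (Psmd5 and Psmg1), 2 with library weights, and 1 to 2 with a library left out. With the unmoderated model 3 members were again higher, but these were Psmc3, Psmc4 and Psmd8. All genes then gave 407 higher and 270 lower. The members' median log2 fold change (0.11) was 0.069 after TPM rescaling, 0.058 after quantile normalization, 0.028 after median centring, and 0.077 to 0.133 with a library left out. The median of all genes was then 0.067, 0.01 and 0.013 in the same 3 scalings. For the 32 other pathway genes, the count higher (2) was 1 after quantile normalization, 0 after median centring, 5 with library weights, 0 with a fold change over 1.5 and 0 to 8 with a library left out. The count lower (0) was 1 (Nfe2l3) after quantile normalization, median centring or library weights, and 0 to 4 with a library left out. The cause of these changes was not tested. Of the 46 members, 18 changed sign in at least 1 setting, none of them with an unadjusted limma p under 0.05 in the reported fit. Median centring turned 6 (Psme2 to -0.014), TPM rescaling 2, quantile normalization 3, library weights 3, and leaving out a library 3 to 7.

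With the replicate block, 4 members were higher and 1 lower, and 5 other pathway genes were higher. The count of all genes past the adjusted threshold moved from 0 to 47, and the unadjusted counts from 456 higher and 294 lower to 1022 and 445. With the block, Psmg3 was the only member whose unadjusted call changed. Library weights gave 1398 higher and 613 lower genes, and no filter gave 917 and 487. Voom on the recovered reads, added after the data were seen, gave 434 and 327.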
